A study of Mus musculus with 7 samples.

Results

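The transcripts described here are those of 10 genes that set the pace of the G1 phase of the cell cycle: the D-type cyclins Ccnd1, Ccnd2 and Ccnd3, their kinase partners Cdk4 and Cdk6, the Cip/Kip inhibitors Cdkn1a and Cdkn1b, and the INK4 inhibitors Cdkn2a, Cdkn2b and Cdkn2c. They were taken by gene symbol from a table of 18468 genes, in which each had 1 row. All 10 passed the filter on low counts, as did 12388 genes in all. The cells were C3H10T1/2, a mouse embryonic mesenchymal line that can be turned toward bone, cartilage or fat. Both groups came from this single line and spent 12 h without serum and then 48 h in treatment medium that likewise held no serum. One group received 2 µM purmorphamine, a small-molecule agonist of the Hedgehog signal transducer Smoothened (4 libraries, replicates 5 to 8), and the other 0.02% DMSO, the vehicle (3 libraries, replicates 2 to 4). Nothing in the labels says that the replicates were separate cultures, so the p-values measure the spread between these libraries, which may be technical. The comparison asks how sustained engagement of Smoothened alters the levels of transcripts.

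D-type cyclins bind CDK4 or CDK6, and the active pair phosphorylates the retinoblastoma protein and its relatives, which frees E2F transcription factors to switch on genes for DNA replication. INK4 proteins occupy CDK4 and CDK6 and keep the cyclin out, whereas Cip/Kip proteins bind the assembled complexes and block those of CDK2 most firmly. Cyclin D levels follow mitogens, and in several tissues they also follow Hedgehog signals, whereas serum withdrawal generally raises the Cip/Kip protein p27, the product of Cdkn1b.

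Purmorphamine was accompanied by a 3.31-fold higher level of Ccnd1 transcripts, the largest change of the 10 genes in either direction, and by a 1.42-fold higher level of Cdkn2c transcripts. Transcripts for Ccnd2 and Cdkn1b rose by less, those for Cdk4, Cdk6 and Cdkn1a fell, and those for Cdkn2a and Cdkn2b did not pass the test. With the threshold used here (an edgeR quasi-likelihood p under 0.2 after Benjamini-Hochberg correction across the genes tested), 5 of the 10 genes were called higher and 3 lower. Across all genes tested, 31.4% were called higher and 31.1% lower, so that these counts alone say little of the 10 genes. At an adjusted p under 0.05, 4 were higher and 3 lower, against 2879 higher and 2926 lower among all 12388 genes tested. The deposited counts of the groups did not overlap for 4 genes that were higher and 3 that were lower, against 29.1% and 20.4% of all genes tested. On TMM-scaled reads the exact two-sided permutation test over the 35 assignments of libraries gave p = 0.0286, the smallest it allows, for each of these 7 genes. That p can arise only where the groups do not overlap, so it adds little to the counts above. Absence of overlap does not by itself fix it, since the deposited counts of Cdkn1a gave 0.114 by the same test.

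Libraries held between 14337225 and 14342154 reads, having been resampled to equal size by the authors, and a count of 3 reads corresponded to a CPM of 0.209. All 10 mesenchymal markers (collagens, Vim, Thy1, Pdgfra, Pdgfrb, Prrx1, Twist1 and Twist2) exceeded 10 reads in every library, and their sum was 281824 to 288421 reads with DMSO and 261282 to 280629 with purmorphamine. Single markers differed more, with Vim going from between 79220 and 81440 to between 41359 and 43378 reads, Pdgfra from between 10552 and 11060 to between 18354 and 19275, and Twist2 from between 36 and 42 to between 148 and 197. Summed markers of endothelium went from between 779 and 820 reads with DMSO to between 1898 and 2154 with purmorphamine, nearly all from Tek, while Pecam1 stayed at 1 to 5 reads and Cdh5 went from 0 to between 21 and 26. Summed epithelial markers, of which 3 of 6 had a row, went from between 14 and 23 to between 111 and 136 reads, mostly Cdh1. Rows existed for 3 of 5 blood, 2 of 4 skeletal muscle and 2 of 3 neuron markers. None of these exceeded 10 reads in every library, though the blood marker Cd68 held 10 to 18 reads. The part of other cells, or of these marker differences, in the results below was not tested. In bulk RNA, fewer cells of a type and less RNA per cell cannot be told apart.

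**Figure D1:**
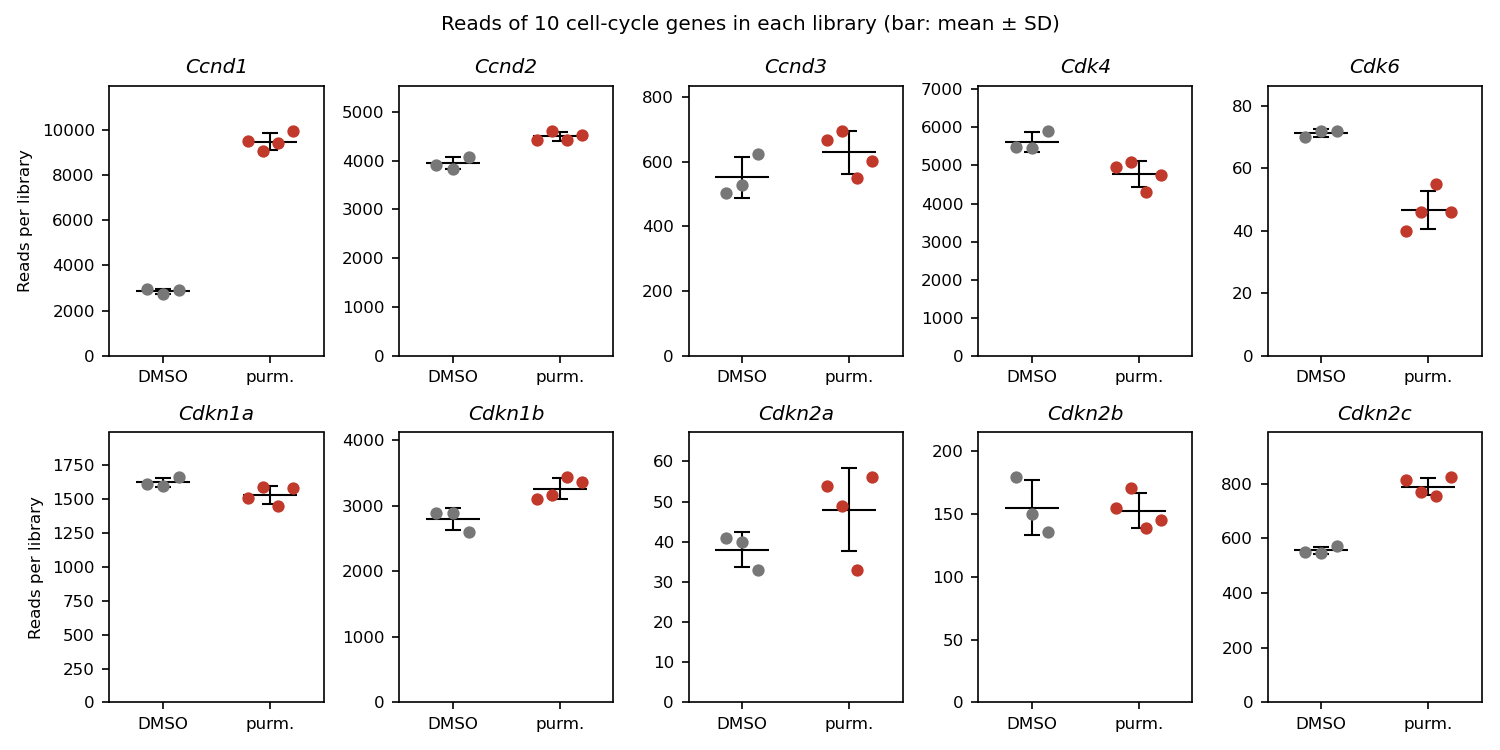
Reads per library (vertical axis, from 0, a separate scale for each gene) of the 10 genes with DMSO (grey, 3 libraries) and with purmorphamine (purm., red, 4 libraries); horizontal bars and whiskers give mean ± SD. Ccnd1 and Cdkn2c stand clearly apart between the groups, Cdk4 and Cdk6 sit lower with purmorphamine, and Ccnd3, Cdkn2a and Cdkn2b overlap.

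The D-type cyclins share a short stretch at their amino terminus, the LxCxE motif with which they dock on the retinoblastoma protein. The first 60 coding bases of each are shown because they place this motif, whose codons are in capitals (GENCODE M21 transcripts, GRCm38, 5′ to 3′ from the start codon).
Ccnd1: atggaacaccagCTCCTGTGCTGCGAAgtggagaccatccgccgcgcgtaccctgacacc
Ccnd2: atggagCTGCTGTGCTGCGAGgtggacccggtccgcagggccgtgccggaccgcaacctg
Ccnd3: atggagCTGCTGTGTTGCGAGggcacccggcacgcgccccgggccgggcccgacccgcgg
The motif lies at coding bases 13 to 27 in Ccnd1 and at 7 to 21 in Ccnd2 and Ccnd3. Over the whole coding sequence, identity was 66.9% between Ccnd1 and Ccnd2, 65.8% between Ccnd2 and Ccnd3 and 62.6% between Ccnd1 and Ccnd3. The longest run of identical bases in any pair was 20, well short of the 100-base reads, so the 3 cyclins could be counted apart. Over at least 300 bases, 1 near copy of any of the 10 genes was found at 95% identity or more, the pseudogene Ccnd3-ps, which was 96.3% identical to Ccnd3 over 881 bases and itself held 0 or 1 read in each library. A further 119 matches of 100 to 289 bases, some with transcripts of abundant genes, touched Ccnd3, Cdk6 and Cdkn1a, and how reads there were assigned is not given in the sources used here, so the counts of these 3 genes carry that uncertainty.

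Ccnd1 (ENSMUSG00000070348, GRCm38 chr7:144929931-144939925, minus strand) encodes cyclin D1, the D-type cyclin most often tied to mitogen signals. Its reads were 2948, 2723 and 2904 with DMSO and 9497, 9051, 9402 and 9946 with purmorphamine. Every purmorphamine library was far above every DMSO library. The means were 2860 ± 119 (SD, n = 3) and 9470 ± 369 (n = 4), with a log2 fold change of 1.68 (SE 0.0512, edgeR adjusted p = 1.1e-13). Only 160 of the 12388 genes tested had a larger log2 fold change, which places Ccnd1 at percentile 98.7.

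Ccnd2 (ENSMUSG00000000184, chr6:127125162-127152193, minus strand) encodes cyclin D2. It had 3915, 3835 and 4077 reads with DMSO and 4416, 4605, 4424 and 4524 with purmorphamine. The groups did not overlap, yet the difference was small, 3940 ± 123 against 4490 ± 89.8 reads or 1.14-fold. The log2 fold change was 0.14 (SE 0.0441, edgeR adjusted p = 0.0147), at percentile 68 of all genes tested.

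Ccnd3 (ENSMUSG00000034165, chr17:47505051-47599691, plus strand) encodes cyclin D3. Its counts were 504, 529 and 623 with DMSO and 668, 695, 551 and 601 with purmorphamine. The groups overlapped, since DMSO replicate 4 exceeded purmorphamine replicates 7 and 8. Its log2 fold change of 0.14 (SE 0.0849, edgeR adjusted p = 0.19) was on the called side of the threshold by a narrow margin, and the exact permutation p was 0.286. The call was lost without any one of DMSO replicate 2 (adjusted p = 0.522), DMSO replicate 3 (0.426), purmorphamine replicate 5 (0.325) or purmorphamine replicate 6 (0.325), and also with DESeq2 (0.222).

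Taken per kilobase of exon, Ccnd1 made up 55.7% ± 1.04 (SD, n = 3) of the summed D-type cyclin level with DMSO and 78.5% ± 0.954 (n = 4) with purmorphamine. Ccnd2 went from 38.5% ± 0.579 to 18.7% ± 0.697 and Ccnd3 from 5.77% ± 0.555 to 2.8% ± 0.33. The lower shares of Ccnd2 and Ccnd3 therefore accompanied counts that were not lower. Ccnd1 held 0.71 to 0.753 reads for each Ccnd2 read in the DMSO libraries and 1.97 to 2.2 in the purmorphamine libraries. By contrast, the ratio of Ccnd2 to Ccnd3 reads was 7.19 ± 0.614 and 7.2 ± 0.7. Summed over the 3 genes, reads were 7350 ± 259 with DMSO and 14600 ± 334 with purmorphamine, a ratio of 1.98. The shares moved with the length used. Per kilobase of the longest protein-coding transcript, a scale added after the data had been seen, Ccnd1 went from 46.4% to 71.5%.

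**Figure D2:**
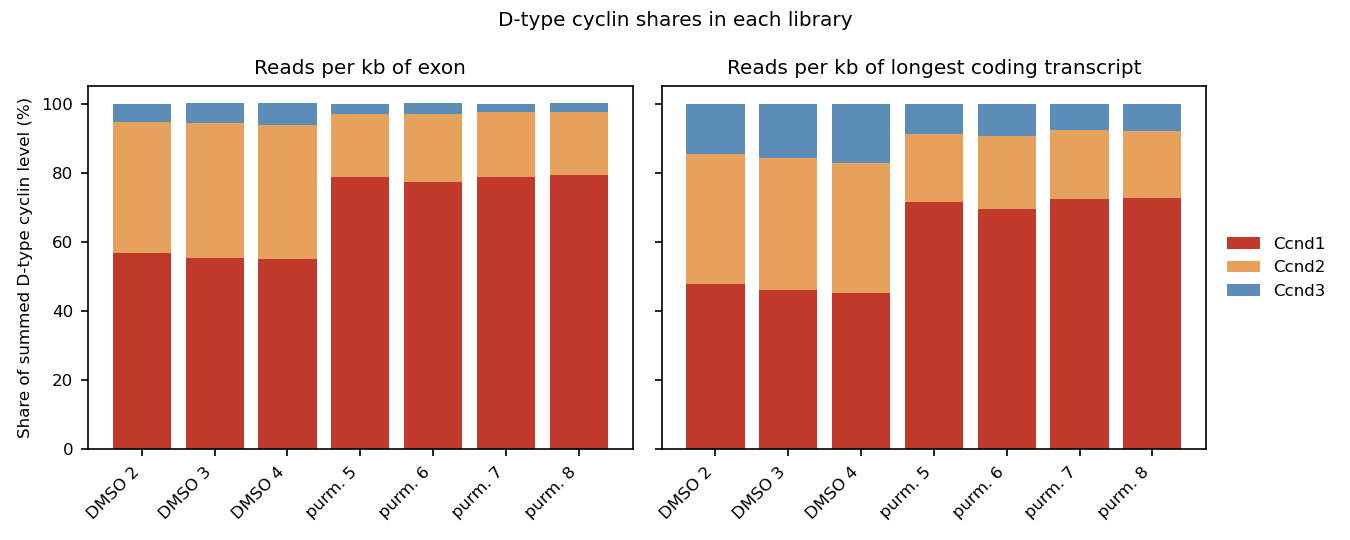
Share of Ccnd1 (red), Ccnd2 (orange) and Ccnd3 (blue) in the summed D-type cyclin level of each library, in percent, with reads per kilobase of exon (left) or of the longest protein-coding transcript (right). On both scales Ccnd1 takes a larger share in all 4 purmorphamine (purm.) libraries than in any DMSO library.

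Both kinase partners had fewer reads with purmorphamine. Cdk4 (ENSMUSG00000006728, chr10:127063534-127067920, plus strand) had 5476, 5451 and 5906 reads with DMSO and 4962, 5091, 4307 and 4757 with purmorphamine. No purmorphamine library reached the lowest DMSO library. The means were 5610 ± 256 and 4780 ± 344, or 0.852-fold, with a log2 fold change of -0.28 (SE 0.0551, edgeR adjusted p = 0.000506). Relative to Cdk4, Ccnd1 went from 0.51 ± 0.025 to 1.99 ± 0.181 reads for each Cdk4 read.

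Cdk6 (ENSMUSG00000040274, chr5:3341485-3531008, plus strand) was sparse. It had 70, 72 and 72 reads with DMSO and 40, 46, 55 and 46 with purmorphamine, so the groups were apart. The means of 71.3 ± 1.15 and 46.8 ± 6.18 gave a ratio of 0.655 and a log2 fold change of -0.66 (SE 0.148, edgeR adjusted p = 0.00159), the largest decrease among the 10 genes. Cdk4 reads outnumbered Cdk6 reads 75.7- to 82-fold in the DMSO libraries and 78.3- to 124-fold in the purmorphamine libraries, and these ranges overlapped.

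The stretch upstream of Cdk4 and Cdk6 is shown because both genes fell and both windows hold the palindrome CACGTG, an E-box of the kind bound by Myc and related factors. The 250 bases before each RefSeq start (GRCm38.p6, plus strand) are given 5′ to 3′ with CACGTG in capitals. They cover chr10:127063285-127063534 and chr5:3343643-3343892.
Cdk4: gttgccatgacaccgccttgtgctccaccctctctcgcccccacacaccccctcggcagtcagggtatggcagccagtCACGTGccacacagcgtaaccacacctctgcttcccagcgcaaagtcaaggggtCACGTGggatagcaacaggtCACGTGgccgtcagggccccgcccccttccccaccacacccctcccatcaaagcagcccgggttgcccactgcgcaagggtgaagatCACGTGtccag
Cdk6: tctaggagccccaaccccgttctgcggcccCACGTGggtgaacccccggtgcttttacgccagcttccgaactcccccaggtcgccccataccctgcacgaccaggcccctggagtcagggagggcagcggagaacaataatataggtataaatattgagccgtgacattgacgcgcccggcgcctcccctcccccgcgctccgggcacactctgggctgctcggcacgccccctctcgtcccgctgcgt
Cdk4 holds 4 copies, which begin at positions -172, -118, -98 and -11 from the start, and Cdk6 holds 1, at -220. Of 32851 RefSeq windows of 300 bases (250 before to 50 after the start), 7.15% hold at least 1 copy on either strand and 8, or 0.0244%, hold at least 4. Windows were used for 8 of the 10 genes, 12 windows in all, with none for Ccnd1 and Ccnd2. Other letters searched on both strands were the E2F-type TTTCCCGC (1.07% of all windows) and TTTGGCGC (0.514%), the forkhead-type GTAAACA (3.65%) and the Gli-type GACCACCCA (0.253%). Among these windows TTTCCCGC was found in the upstream one of Cdkn2a, at -99, and GTAAACA on the reverse strand in the upstream one of Ccnd3, at -243. A further CACGTG lies in the downstream window of Cdkn2c, at 34. These matches describe letters only.

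The Cip/Kip inhibitors moved in opposite directions. Cdkn1a (ENSMUSG00000023067, chr17:29090976-29100727, plus strand) encodes p21, best known as a target of p53. It had 1610, 1599 and 1660 reads with DMSO and 1510, 1587, 1447 and 1586 with purmorphamine. The highest purmorphamine library lay just below the lowest DMSO library, and the means were 1620 ± 32.5 and 1530 ± 67.5. The log2 fold change was -0.13 (SE 0.0476, edgeR adjusted p = 0.0335). With library totals in place of TMM factors, which correct for differences in composition, it was -0.08 (edgeR adjusted p = 0.171), and the exact permutation p went from 0.0286 to 0.114.

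Cdkn1b (ENSMUSG00000003031, chr6:134920401-134925513, plus strand) encodes p27, which holds back CDK2 and helps cyclin D and CDK4 to assemble. It had 2894, 2888 and 2603 reads with DMSO and 3097, 3158, 3428 and 3355 with purmorphamine. All 4 purmorphamine libraries were above all 3 DMSO libraries. The means were 2800 ± 166 and 3260 ± 157, or 1.17-fold, with a log2 fold change of 0.18 (SE 0.053, edgeR adjusted p = 0.0124). Within libraries, Cdkn1a went from 0.583 ± 0.0478 to 0.471 ± 0.0349 reads for each Cdkn1b read, and Ccnd1 from 1.03 ± 0.0866 to 2.91 ± 0.138.

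Of the 3 INK4 inhibitors, Cdkn2c alone passed the test. Cdkn2c (ENSMUSG00000028551, chr4:109660876-109667189, minus strand) encodes p18INK4c. It had 552, 548 and 571 reads with DMSO and 812, 769, 756 and 823 with purmorphamine. The gap between the groups was larger than the spread within either. The means were 557 ± 12.3 and 790 ± 32.5, or 1.42-fold, with a log2 fold change of 0.46 (SE 0.0569, edgeR adjusted p = 4.51e-06), at percentile 88.8 of all genes tested.

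Cdkn2a (ENSMUSG00000044303, chr4:89274471-89294653, minus strand) encodes p16INK4a and, from another first exon, the p53 activator ARF, and counts per gene cannot separate these. Its reads were 41, 40 and 33 with DMSO and 54, 49, 33 and 56 with purmorphamine. Purmorphamine replicate 7 was as low as the lowest DMSO library, whereas the other 3 lay above all of them. The log2 fold change of 0.29 (SE 0.196, edgeR adjusted p = 0.242) was not called. Without purmorphamine replicate 7 it was 0.44 (edgeR adjusted p = 0.052), which was called, as it was with library totals alone at 0.34 (0.177).

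Cdkn2b (ENSMUSG00000073802, chr4:89306299-89311039, minus strand) encodes p15INK4b, the INK4 member induced by TGF-β. It had 179, 150 and 136 reads with DMSO and 155, 171, 139 and 145 with purmorphamine, and the groups overlapped fully. The means were 155 ± 21.9 and 152 ± 14, with a log2 fold change of -0.07 (SE 0.113, edgeR adjusted p = 0.644). Without DMSO replicate 2 the sign turned, to 0.05. Summed INK4 reads were 750 ± 19.1 with DMSO and 990 ± 44.6 with purmorphamine, and Cdkn2c reads for each Cdkn2b read went from 3.65 ± 0.557 to 5.21 ± 0.509.

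**Figure D3:**
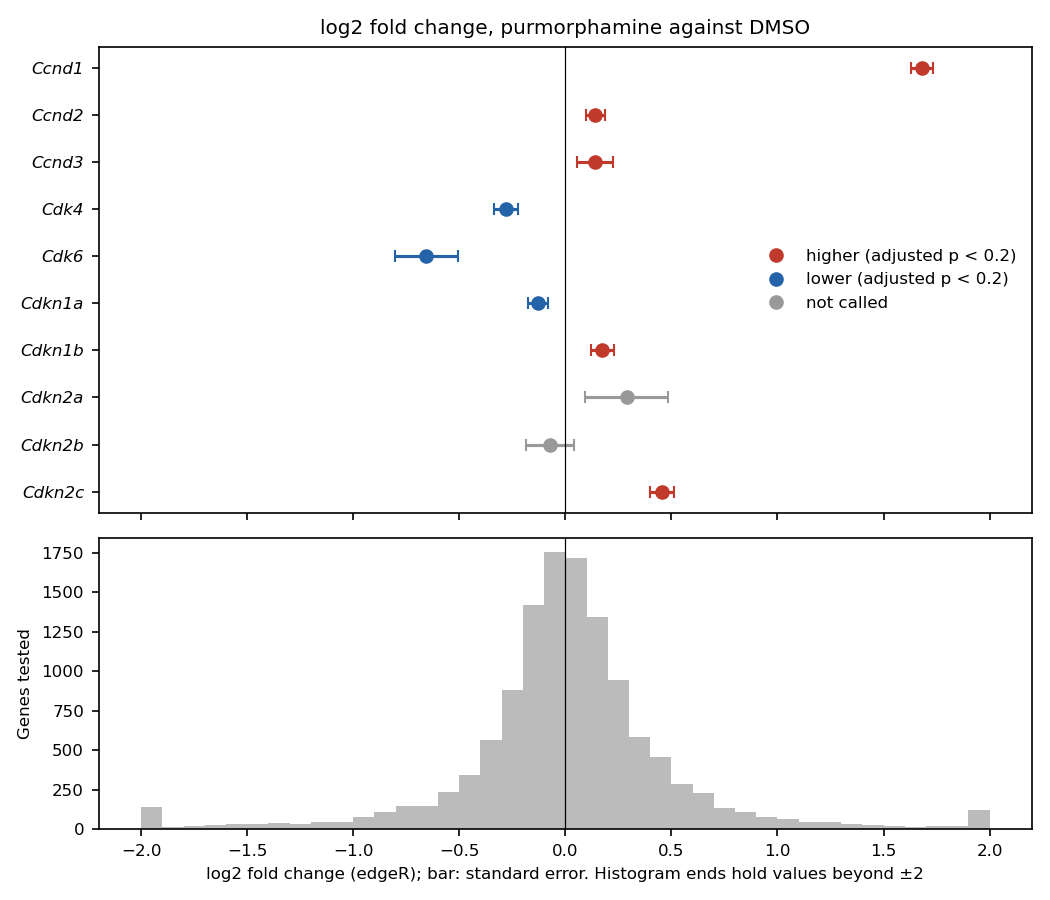
Top: log2 fold change with purmorphamine against DMSO for each of the 10 genes, with the standard error as bars (red, called higher; blue, called lower; grey, not called). Bottom: the log2 fold changes of all 12388 genes tested, with values beyond ±2 gathered in the end bars; Ccnd1 at 1.68 lies in the right tail and the other 9 lie between -0.66 and 0.46.

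Levels can be compared between genes only per length. In RPKM (reads per kilobase of exon, scaled by TMM-adjusted library size), Cdk4 was the most abundant of the 10 with DMSO (123 ± 6.01), followed by Cdkn1b (43.7 ± 2.47), Ccnd1 (43.2 ± 1.96), Cdkn1a (32.5 ± 0.771) and Ccnd2 (29.8 ± 1.05). Cdkn1b and Ccnd1 did not differ beyond their spread on this scale. Cdkn2c followed at 14.7 ± 0.379, Cdkn2b at 7.93 ± 1.12, Ccnd3 at 4.47 ± 0.521, Cdkn2a at 2.3 ± 0.259 and Cdk6 at 0.363 ± 0.00573. With purmorphamine, Ccnd1 ranked first at 138 ± 5.45, ahead of Cdk4 at 101 ± 6.81, and their ranges did not overlap. Ccnd2 (32.9 ± 0.53) stood above Cdkn1a (29.7 ± 1.16) there, Cdkn1b (49.3 ± 2.55) stood between Cdk4 and Ccnd2, and Cdkn2c, Cdkn2b, Ccnd3, Cdkn2a and Cdk6 kept ranks 6 to 10. The order in the middle, and how clearly Ccnd1 stood above Cdk4 with purmorphamine, depended on the length used. Per kilobase of the longest coding transcript with DMSO, Cdkn1a (55.5 ± 1.32) was at rank 2, Ccnd1 (54.3 ± 2.47) at rank 3, Ccnd2 (44.3 ± 1.56) at rank 4 and Cdkn1b (43.7 ± 2.47) at rank 5. With purmorphamine the mean of Ccnd1 was again first on that scale (174 ± 6.86) and that of Cdk4 next (160 ± 10.8). These 2 overlapped within their SDs, unlike on the exon scale. Cdkn1a (50.7 ± 1.98), Cdkn1b (49.3 ± 2.55) and Ccnd2 (48.8 ± 0.788) lay within their spread of each other. Ccnd3 lay above Cdkn2b on that scale in both groups, at 18.6 ± 2.16 and 20.5 ± 2.04. The mean of Ccnd3 was also above that of Cdkn2c with DMSO (16 ± 0.413) but below it with purmorphamine (22 ± 0.856). No library of a group was the lowest or the highest for all 10 genes. In the purmorphamine group replicate 7 was the lowest library for 6 of them, among these Cdk4 and Cdkn2c, and the highest for 2, Cdk6 and Cdkn1b.

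Among the other CDK inhibitors, Cdkn1c, which encodes p57, had no row, so its level is not known. Cdkn2d, which encodes p19INK4d, was near the floor. It had 7, 3 and 4 reads with DMSO and 10, 17, 4 and 10 with purmorphamine. The groups overlapped at 4 reads. Its log2 fold change was 1.07 (SE 0.483, edgeR adjusted p = 0.0808), but the call was lost without DMSO replicate 3, where the adjusted p was 0.241, and the gene no longer passed the filter without purmorphamine replicate 5, 6 or 8.

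Downstream of the cyclin D kinases, 9 of 13 genes for the retinoblastoma family, E2F and DP proteins were higher and 2 were lower, with a median log2 fold change of 0.17 against 0 for all genes tested. For this list and those below, the shares over all genes tested were 31.4% higher and 31.1% lower. The largest increases among those with at least 50 reads on average were in the atypical repressors E2f8 (126 ± 8.54 to 239 ± 44.8 reads, log2 fold change 0.88) and E2f7 (148 ± 8.02 to 234 ± 32.9, 0.62). E2f1 went from 386 ± 24.9 to 460 ± 47.4 reads (log2 fold change 0.21, edgeR adjusted p = 0.0506), with DMSO and purmorphamine libraries overlapping, and E2f3 fell by 0.21 on the log2 scale. Among the pocket proteins, Rbl1 (p107) and Rbl2 (p130) were higher, with log2 fold changes of 0.33 and 0.17, though the Rbl1 groups overlapped. Rb1 was called lower at -0.16 (SE 0.069, edgeR adjusted p = 0.0719), a call that was lost with library totals alone and without DMSO replicate 3, purmorphamine replicate 5 or purmorphamine replicate 6, where the adjusted p reached up to 0.256.

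Of the 12 genes for cyclins E and A, CDK1, CDK2, the CDC25 phosphatases and the CDK-activating kinase, 11 were tested, 6 were higher and 3 lower. Over all genes tested the shares were 31.4% and 31.1%. Cyclin E, the next cyclin after cyclin D, was split between its genes. Ccne2 rose from 328 ± 23.2 to 486 ± 87.7 reads (log2 fold change 0.52, edgeR adjusted p = 0.00143), whereas Ccne1 had 146, 145 and 115 reads with DMSO and 115, 85, 93 and 158 with purmorphamine. The Ccne1 groups overlapped, and its call as lower (-0.31, edgeR adjusted p = 0.148) was lost without any one of DMSO replicates 2 and 3 and purmorphamine replicates 5, 6 and 7, and with library totals alone, where the adjusted p reached up to 0.345. Cdc25b, a phosphatase that activates CDKs, had the largest increase (449 ± 17.4 to 815 ± 58.5 reads, 0.81), followed by Ccna2, which encodes cyclin A2 (886 ± 80.8 to 1330 ± 231, 0.54), and Cdk2 rose from 810 ± 29.8 to 961 ± 41.8 reads (0.2). Mnat1, an assembly factor of the CDK-activating kinase, fell by 0.28 on the log2 scale.

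Among 20 genes listed for the G1 to S transition, 16 were higher, none was lower, and the median log2 fold change was 0.37. The list holds known E2F targets or replication factors, together with the proliferation marker Mki67. Of all genes tested, 31.4% were higher and 31.1% lower. The list was chosen with earlier results of these data known, so its count and median may partly reflect that choice. Tk1, thymidine kinase, went from 198 ± 23.2 to 338 ± 39.4 reads (log2 fold change 0.72). Mki67, the proliferation marker Ki-67, had 2392, 2406 and 2336 reads with DMSO and 3904, 3024, 3834 and 4223 with purmorphamine. Replicate 6 was the lowest of the purmorphamine libraries for Mki67, Ccna2 and Ccne2, yet above every DMSO library for each. This did not hold for all 20 genes. Rrm2, called higher, had 826 reads in replicate 6, within its DMSO range of 743 to 846. Tyms (472 reads) and Gins1 (43 reads) were below every DMSO library there. The 4 genes that did not pass the test, named after their values had been seen, were Mcm7 (0.06), Cdt1 (0.15), Tyms (0.05) and Gins1 (-0.1).

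**Figure D4:**
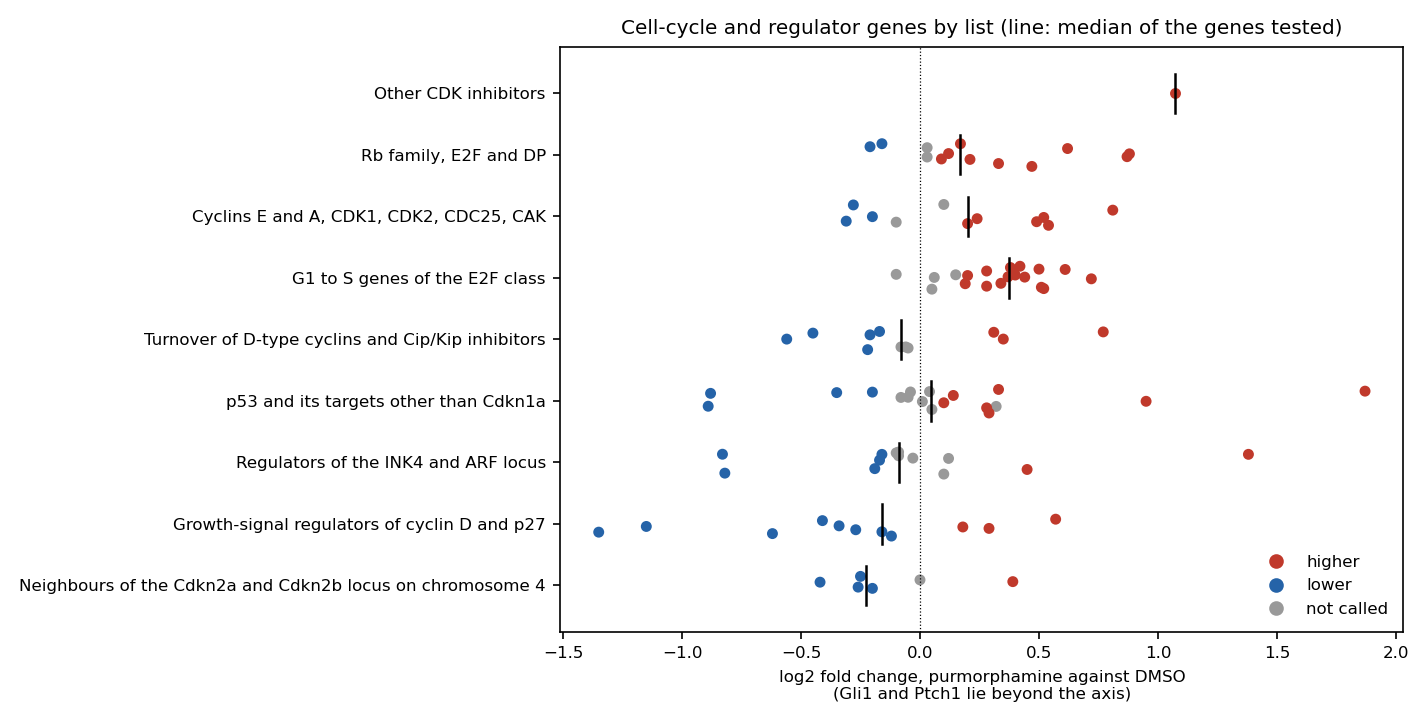
log2 fold change with purmorphamine against DMSO of each gene tested in 9 lists of cell-cycle genes and regulators (red, called higher; blue, called lower; grey, not called), with the median of each list as a vertical line. The G1 to S genes lie mostly to the right of 0, with a median of 0.37, and the growth-signal list is split, with Gli1 (8.05) and Ptch1 (4.34) beyond the axis.

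Of 11 genes for the turnover of D-type cyclins and Cip/Kip inhibitors, 3 were higher and 5 lower. With 31.4% higher and 31.1% lower over all genes tested, these counts alone say little of the list. Skp2, which marks p27 for destruction, rose from 223 ± 13.5 to 294 ± 9.98 reads (log2 fold change 0.35, edgeR adjusted p = 0.00159). Its cofactor Cks1b went the other way, from 499 ± 18.5 to 379 ± 26.3 (-0.45), and so did Skp1a, the adaptor of the same ligase, from 6640 ± 224 to 4660 ± 310 (-0.56). Fbxo31, a receptor for cyclin D1 degradation after DNA damage, went from 68.7 ± 8.33 to 121 ± 10.4 reads (0.77).

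For p53, whose best known target is Cdkn1a, 18 of 20 listed genes were tested, 7 were higher and 4 lower, and the median log2 fold change was 0.04. Here too the counts alone say little, with 31.4% higher and 31.1% lower over all genes tested. Trp53 itself, which encodes p53, was among the lower genes, at 1310 ± 44 reads with DMSO and 1180 ± 101 with purmorphamine. Its log2 fold change was -0.2 (edgeR adjusted p = 0.0139), with overlapping groups. Mdm2, the classical feedback target, had 1710 ± 44.7 reads with DMSO and 1710 ± 67.3 with purmorphamine (log2 fold change -0.04, edgeR adjusted p = 0.499). Btg2 and Plk2 fell by 0.89 and 0.88 on the log2 scale. The largest increases were in Eda2r, a death-receptor family member (297 ± 17.3 to 1120 ± 55.2 reads, 1.87), and Perp (44.3 ± 5.51 to 88.8 ± 13.6, 0.95).

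Known regulators of the INK4 and ARF locus gave 2 higher and 5 lower of 13 tested, against 31.4% and 31.1% of all genes tested. Cbx7, a Polycomb reader that represses this locus, had 276, 228 and 234 reads with DMSO and 660, 719, 657 and 606 with purmorphamine (log2 fold change 1.38, SE 0.0821, edgeR adjusted p = 4.21e-10). Ets1 and Ets2, activators of p16INK4a transcription, moved in opposite directions, with log2 fold changes of 0.45 and -0.83, and Id1, which opposes them, was lower at -0.82. Around Cdkn2a and Cdkn2b on chromosome 4, 1 of 6 genes tested was higher and 4 lower. Mtap, the nearest of these (chr4:89137122-89181081), went from 3310 ± 46.9 to 2880 ± 50.8 (-0.25, edgeR adjusted p = 0.000151), and Klhl9 (-0.26), Mllt3 (-0.2) and Elavl2 (-0.42) were lower too, the last with overlapping groups. Hacd4, listed in the table as Ptplad2, rose by 0.39, Focad, listed as BC057079, was not called (log2 fold change 0), and Dmrta1 was listed at 0 in 6 libraries and at 1 read in purmorphamine replicate 7.

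Among 14 regulators by which growth signals reach cyclin D and p27, 13 had a row, of which 5 were higher and 8 lower. The shares over all genes tested were 31.4% and 31.1%. Myc, which activates Cdk4 and Ccnd2 in many cells, had 369, 354 and 415 reads with DMSO and 158, 168, 132 and 157 with purmorphamine. All purmorphamine libraries held fewer reads than any DMSO library, 0.405-fold on average (log2 fold change -1.35, SE 0.0929, edgeR adjusted p = 2.65e-09). Fos fell by 1.15 on the log2 scale, from 90 ± 8.72 to 41.8 ± 5.74 reads. Mycn, a Hedgehog target in cerebellar precursors, had no row. The Hedgehog targets Gli1 (12, 7 and 11 reads with DMSO and 2811, 3171, 2576 and 2522 with purmorphamine) and Ptch1 show the treatment in each library. Both were counted among the 5 higher genes, with Foxo1 (log2 fold change 0.18), Foxo3 (0.29) and Foxo4 (0.57).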

How the data were processed

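The authors sequenced ribosome-depleted, stranded RNA as single 100-base reads, resampled the reads so that libraries held equal numbers, and deposited whole-number counts per gene on the sense strand. The submitters' notes name STAR 2.5.3a and mm9; the annotation is not given in the sources used here. All 7 libraries were grouped by title. The members and gene lists were chosen with earlier results of these data known.

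From the counts, edgeR 4.0.16 (limma 3.58.1, R 4.3.3) was run with TMM factors, the default filter (10 counts scaled to library size, total of 15) and a quasi-likelihood test, p-values being adjusted by Benjamini-Hochberg across 12388 genes, after a test on simulated data. A gene was called at an adjusted p under 0.2, the study's threshold. Log2 fold changes are TMM-scaled, whereas ratios are of deposited counts. Single genes were also tested by exact permutation of log2(scaled reads + 1). Alternatives were other scalings, filters and thresholds, DESeq2 1.42.0, limma-voom and leaving out each library.

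Named were all members, a fixed set of regulators, and from each other list the 2 largest increases and 2 largest decreases among called genes averaging at least 50 reads. A few other list genes were named after their values had been seen. Because 59.5% of matched intervals in the table were exactly 400 bases wider than GENCODE genes, positions are GENCODE M21 (GRCm38) by Ensembl ID, matched for 17632 genes (95.5%). No member shares exon bases with another gene on its strand. Sequences are from GENCODE and RefSeq.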

Additional observations from a re-analysis of the deposited data

Results flagged for a closer look

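The 4 purmorphamine libraries were examined for the 10 genes and for the tested genes named by the rule, 49 in all, and 1 gene had a library far from the others, where chance would give 2.45. The DMSO group, with 3 libraries, was not examined. In the purmorphamine group Id1 had 308, 262, 266 and 261 deposited reads. On TMM-scaled reads the gap from replicate 5 to the next library was 0.838 of the whole range, past Dixon's 95% critical value for 4 libraries. All 4 counts were below the DMSO counts of 490, 467 and 446, and Id1 was called lower in each of 14 alternative analyses.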

How the results depend on the processing

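Of the 10 genes, 7 (Ccnd1, Ccnd2, Cdk4, Cdk6, Cdkn1a, Cdkn1b and Cdkn2c) kept their direction and call in all 14 alternatives, with Ccnd1 between 1.64 and 1.73 on the log2 scale and Cdkn1a between -0.14 and -0.08. Ccnd3 was not called with DESeq2 (0.14, adjusted p = 0.222) or at a threshold of 0.05 (0.14, edgeR adjusted p = 0.19), and leaving out each library gave 0.08 to 0.24. Cdkn2a was called with library totals alone (0.34, edgeR adjusted p = 0.177), and leaving out each library gave 0.2 to 0.44. For Cdkn2b the same range was -0.15 to 0.05, the reversal coming without DMSO replicate 2 (0.05). Without TMM scaling the exact permutation p of Cdkn1a was 0.114. The cause of these differences was not tested. Without TMM the median log2 fold change of all genes tested moved by 0.0475 and the higher share of calls went from 50.2% to 59.5%. As reads instead of per kilobase of exon, Ccnd1 was 38.9% of D-type cyclins with DMSO and 64.9% with purmorphamine, Ccnd2 53.6% and 30.8%, and Ccnd3 7.5% and 4.31%. Per kilobase of the longest coding transcript, added after the data were seen, these were 46.4% and 71.5%, 37.8% and 20.1%, and 15.8% and 8.41%. No paired analysis was possible because DMSO libraries carry the numbers 2 to 4 and purmorphamine libraries 5 to 8. Counts under 100 reads in every library, as for Cdk6, Cdkn2a and Cdkn2d, limit precision.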
